A study of Mus musculus with 931 samples.

Results

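The genes described here are the nuclear genes of oxidative phosphorylation in developing mouse β cells and α cells. They were taken by symbol: names that start with Nduf and a following a, b, c, s or v, the genes Sdha, Sdhb, Sdhc and Sdhd, and names that start with Uqcr, with Cox4 through Cox8 or with Atp5. The rule matched 95 of the 40824 gene rows of the count tables, and 92 members remained after 3 pseudogene rows were left out. Of these, 83 were counted as subunits by their names: 38 in complex I, 4 in complex II, 8 in complex III, 18 in complex IV and 15 in complex V. Cox7a2l, which joins respiratory complexes into larger assemblies, is counted with complex IV. Ndufa4, now placed in complex IV, is counted with complex I. A further 7 are complex I assembly factors (Ndufaf genes), and 2 carry a complex V name without being subunits (Atp5s and Atp5sl). Measured values played no part in the rule. Genes of the mitochondrial DNA are not analysed here.

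Oxidative phosphorylation makes ATP in mitochondria. Complexes I and II pass electrons from nutrients to ubiquinone, complex III passes them on to cytochrome c, and complex IV passes them to oxygen, while complex V uses the resulting proton gradient to make ATP. In β cells the ATP made from glucose closes potassium channels and so sets off insulin secretion, and glucose metabolism also bears on glucagon secretion in α cells. Several complex IV subunits exist as isoforms from separate genes, one broadly expressed and another best known from muscle, lung or testis.

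The series followed both cell types from the embryonic stage E17.5 through the day of birth (P0) and postnatal days 3, 9, 15 and 18 (P3 to P18) to day 60 (P60). β cells came from Ins1-RFP mice, a mixed C57BL/6 and C3H background in which an insulin 1 reporter marks the cells, and α cells from Gcg-Cre, Rosa-RFP mice, a mixed C57BL/6, CBA/J and C3H background in which glucagon-driven Cre switches on the reporter. Strain and cell type therefore cannot be told apart in any comparison of α with β cells, and a reporter switched on by Cre also marks cells that made glucagon earlier. Bulk RNA-seq covered 14 libraries of sorted β cells, 2 per stage, from pooled cells. Smart-seq2, which reads whole transcripts of single cells without molecular identifiers, covered 538 β cells at 7 stages and 328 α cells at 6 stages (none at P3), either FACS-sorted or picked by hand. Reads of the cells of a labelled batch were summed, giving 25 β and 20 α batches as replicates. At E17.5, β cells had 1 FACS-sorted and 2 picked batches, and α cells had 3 FACS-sorted and 1 picked. Fits within a single collection method therefore have few batches, with 1 at E17.5 for FACS-sorted β and for picked α cells. A call that ended in such a fit decides nothing about the gene. The labels name no animals, so the p-values measure the spread between labelled libraries or batches, which may be technical.

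Bulk libraries held 10.3 M to 21.4 M gene reads and batches 5.96 M to 49.1 M. A cell had reads from a median of 77 to 81 members, depending on the group. The marker genes matched the labels: the 6 β cell markers summed to 175413 to 799246 CPM (reads scaled to a common library total with TMM factors) in the β batches of E17.5 and P60 and to 500 to 3724 CPM in the α batches. In the bulk libraries the 10 acinar markers, genes of the digestive enzymes, summed to 1229 and 4077 CPM at E17.5, 194 and 723 CPM at P0, and 18968 and 55029 CPM at P60. The 4 mesenchymal markers summed to 80.0 and 172 CPM at E17.5, 390 and 1154 CPM at P0, and 2.43 and 12.1 CPM at P60. Xist, the RNA of the inactive X chromosome, stood at 517 and 609 CPM at E17.5 and at 0.425 and 0.767 CPM at P60. The acinar and mesenchymal markers and Xist thus moved with stage in bulk, and their part in the bulk results was not tested. Fits with an acinar or Xist covariate are given below. Since each covariate moved with stage, these fits cannot separate its part from that of stage. A call that ended with a covariate therefore decides nothing about the markers' part. In bulk samples, fewer cells of a type and less RNA per cell cannot be told apart.

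Together the members took a falling share of all reads as the cells matured, while the share of the hormone genes grew. In bulk β cells the members held 0.727% and 0.682% of gene reads at E17.5, 0.5996% and 0.573% at P0, and 0.485% and 0.525% at P60. Hormone genes took 9.35% and 8.94% of the same reads at E17.5 and 22.1% and 23.6% at P60. With 8 hormone genes left out of the total, the members held 0.802% and 0.749% at E17.5, 0.658% and 0.639% at P0, and 0.623% and 0.688% at P60. The P0 and P60 libraries overlapped on this scale, and all 4 lay below E17.5. In single β cells the members' share of reads outside the hormone genes was 1.77% ± 0.26 (SD, n = 3 batches) at E17.5 and 1.43% ± 0.066 (n = 5) at P60, and in single α cells 1.70% ± 0.067 (n = 4) and 1.501% ± 0.092 (n = 5). The batches of the 2 stages overlapped in both cell types, since single β cells held 1.51% in 1 of the E17.5 batches and 1.54% in 1 of the P60 batches, and α cells 1.63% and 1.65%.

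**Figure D1:**
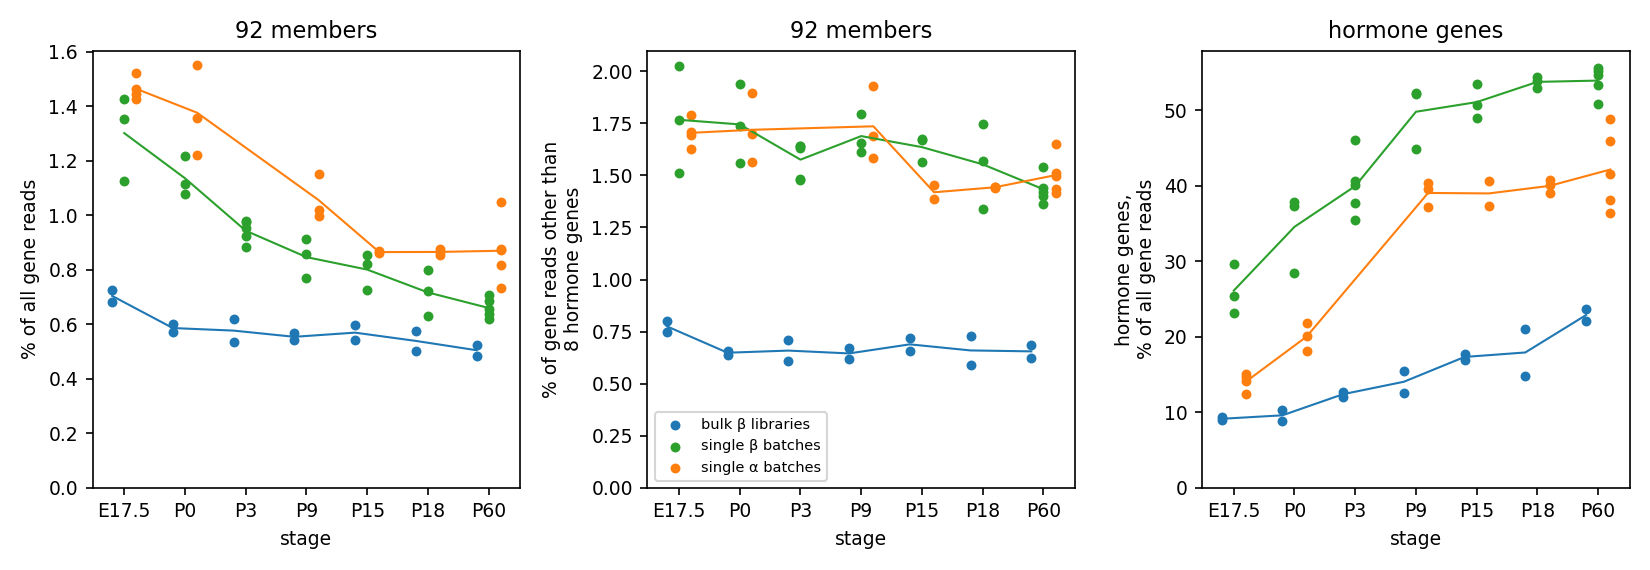
Reads of the 92 members as a percentage of all gene reads (left) and of gene reads outside 8 hormone genes (middle), and the hormone genes' own percentage (right), by stage; points are bulk libraries or single-cell batches, lines join the means, and α cells were not collected at P3. The members' share of all reads falls from 1.30% to 0.660% in single β cells as the hormone share grows, and the change is smaller once the hormone genes are left out.

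How a typical member moves depends on the scale. TMM scaling, used for the tests, centres the fitted changes of all genes near 0 (a median of -0.03 in bulk and -0.01 in single β cells for P60 against E17.5, on the log2 scale). Plain library totals shift the median of all genes to -0.46 in bulk, -0.76 in single β cells and -0.73 in single α cells. Spike-in totals shift it to 0.08 in single β and -0.55 in single α cells. All changes below are log2 changes relative to the TMM scale, and a call is a Benjamini-Hochberg adjusted p under 0.05 from edgeR over all genes tested.

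Around birth, most members of complexes I, III, IV and V had negative changes in bulk β cells. Between E17.5 and P0, 77 of the 88 members tested had a negative log2 change, with a median of -0.34 against 0.03 over all genes, and the median stayed negative under every scaling tried (-0.33 on plain totals). Only 2 members passed the test, both of them lower, while 6.34% of all genes passed, 2.98% as higher and 3.36% as lower, and 30 members had an unadjusted p under 0.05. The negative signs covered 36 of 38 members in complex I, 7 of 8 in complex III, 12 of 14 in complex IV, 14 of 15 in complex V, and 2 of 4 in complex II. Atp5g1, 1 of 3 genes for the same membrane ring subunit of ATP synthase, stood at 80.8 and 89.3 CPM at E17.5 and at 41.9 and 41.6 CPM at P0 (log2 change -1.03 ± 0.26 SE, adjusted p = 0.0435). Ndufa12, an accessory subunit of complex I, stood at 26.8 and 36.3 CPM and then at 14.9 and 17.7 CPM (-0.95 ± 0.22, adjusted p = 0.0311). The stages did not overlap for either gene. Both calls ended when any 1 of the 4 libraries was left out (0 members called, without E17.5 replicate 1 or 2 or P0 replicate 1 or 2) and with an acinar covariate.

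The single β cells gave no call at birth. Between E17.5 and P0, 61 of 90 members had a negative change with a median of -0.10, none passed the edgeR test, 3 had an unadjusted p under 0.05, and 0.0809% of all genes passed. Sums over the members showed the same order in bulk on the TMM scale, 6040 and 6347 CPM at E17.5, 5091 and 5159 CPM at P0, and 5690 and 6252 CPM at P60. The P0 libraries lay below those of both other stages, and E17.5 and P60 overlapped.

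From E17.5 to P60 the bulk β cells changed in few members and in both directions. Of 88 members, 5 rose and 7 fell, beside 13.8% and 15.2% of all genes (29.1% in all), and 60 of 88 changes were negative with a median of -0.12 against -0.03 for all genes. Across all 7 stages, 4 members differed in the overall test (among them Cox6a2, Sdha and Ndufaf7) beside 31.2% of all genes, and 12 had an unadjusted p under 0.05. All 15 complex V members had a median change of -0.35, with 14 of them negative and 3 called lower. The 7 complex I assembly factors had a median of 0.28, with 6 positive and 2 called higher. The other groups had medians of -0.13 (complex I), 0.15 (complex II), -0.14 (complex III) and -0.21 (complex IV).

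**Figure D2:**
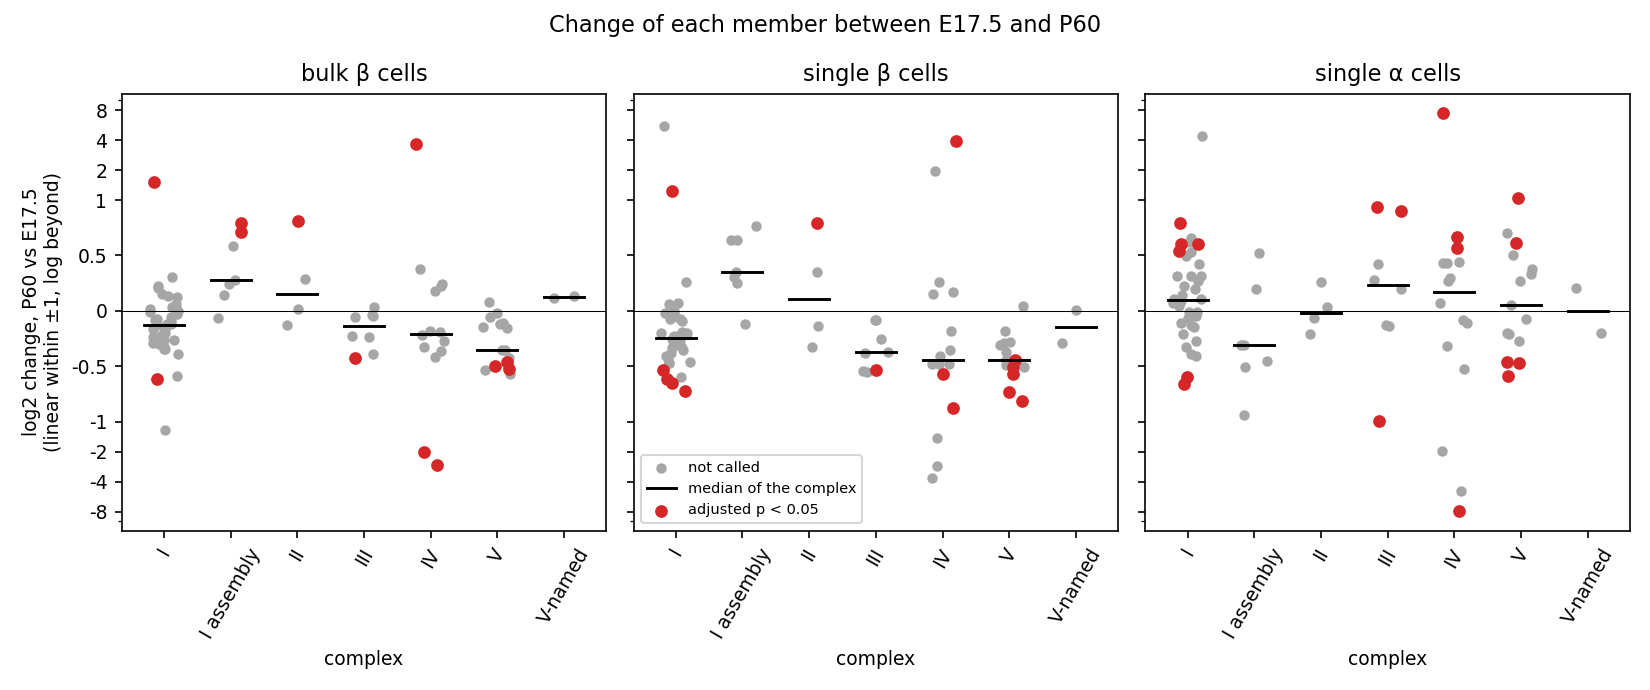
Fitted log2 change of every tested member between E17.5 and P60, by complex, in bulk β cells (left), single β cells (middle) and single α cells (right); the axis is linear within ±1 and logarithmic beyond, bars are medians, and red points passed adjusted p under 0.05. Points beyond ±4 are members with few or no reads at 1 of the stages. Complex V medians are -0.35 and -0.45 in β cells and 0.05 in α cells.

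Cox6a2 encodes the heart and muscle form of subunit 6A of complex IV and made the largest rise of the members called in bulk. The gene lies on the minus strand at chr7:128205435-128206387 (GRCm38, GENCODE vM21). Its E17.5 libraries in bulk read 6.64 and 6.49 CPM, those of P0 2.14 and 2.94 CPM, those of P3 1.66 and 5.44 CPM and those of P9 16.5 and 16.0 CPM. The P15 libraries read 18.4 and 1.82 CPM, the P18 libraries 30.7 and 24.6 CPM, and the P60 libraries 86.1 and 77.9 CPM. Both P60 libraries stood above all earlier ones, and 1 of the P15 libraries stood as low as P0. The log2 change was 3.64 ± 0.76 from E17.5 (adjusted p = 0.00438) and 5.03 ± 0.83 from P0 (adjusted p = 0.000941). Both calls ended with an acinar covariate, and the call from E17.5 also ended with an Xist covariate.

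Cox6a2 also rose in single β cells and, at a far lower level, in α cells. Batches of β cells read 0.475, 7.15 and 10.8 CPM at E17.5, 65.1, 108 and 21.7 CPM at P9, and 95.4, 132, 112, 60.4 and 75.8 CPM at P60. No P60 batch overlapped E17.5 (log2 change 3.91 ± 1.01, adjusted p = 0.0126), and the call ended without β E17.5 replicate 1 or 2, with spike-in totals and within FACS-sorted batches. The share of β cells with at least 1 Cox6a2 read was 24.6% at E17.5 and 40.8% at birth. It was 68.2% on P3, 83.1% on P9 and 89.5% on P15, and reached 93.0% by P18 and 95.3% by P60. In α cells the share was 0% at E17.5 and P0 and between 2.27% and 8.89% from P9 to P60. Median depth per cell was 1.01 M reads in α and 1.24 M in β cells at E17.5, 1.06 M and 1.27 M at P0, and 1.18 M and 1.21 M at P60. At P60 the α batches read 0, 2.77, 0.943, 0 and 1.25 CPM, below every β batch of that stage. The difference between α and β cells at P60 was -6.60 ± 0.94 on the log2 scale (adjusted p = 3.99e-06) and was called in all 9 alternative settings and in all 10 fits that left out 1 batch. At E17.5 the α cells held 0 reads against 700 in β cells, at least 275-fold lower with a floor of 3 reads over the group. The α cells held 85 reads at P60 against 0 at E17.5, at least 32.6-fold higher (adjusted p = 0.00921), though that call ended within FACS-sorted and within picked batches. Cox6a2 shares 10.3% of its exonic bases with Itgad on the other strand, which read 0.571 CPM (median) in single β cells at E17.5 and 5.05 CPM at P60, well below Cox6a2.

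Per length, Cox6a2 overtook its broadly expressed partner in bulk β cells. Cox6a1 read 265 and 314 TPM (a transcript share that divides reads by gene length) at E17.5 and 122 and 116 TPM at P60, and Cox6a2 24.8 and 24.1 TPM and then 164 and 151 TPM. Both P60 libraries held more Cox6a2 than Cox6a1. In single β cells at P60, Cox6a1 ranged from 169 to 200 TPM and Cox6a2 from 65.3 to 164 TPM over 5 batches, so Cox6a1 stayed the higher in each stage mean (187 against 107 TPM). In α cells Cox6a1 averaged 354 ± 84.1 TPM (SD, n = 5) at P60 and Cox6a2 2.05 ± 2.30 TPM.

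Sdha encodes the flavoprotein that oxidises succinate in complex II and in the citric acid cycle, and lies on the minus strand at chr13:74322254-74350280. In bulk it stood at 165 and 157 CPM at E17.5, 117 and 144 at P0, and 260.1 and 303 at P60 (log2 change from E17.5 0.81 ± 0.14, adjusted p = 0.00178). The P60 libraries stood above every library of E17.5, P0 and P18, and the call from E17.5 held whichever of the 4 libraries was left out. It ended with an acinar covariate and on plain totals.

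Sdha rose again in single β cells, which are separate libraries. It read 193, 128 and 148 CPM at E17.5 and 270, 253, 272, 253 and 283 CPM at P60 (0.79 ± 0.21, adjusted p = 0.0126). The stages did not overlap, and the call ended without β E17.5 replicate 2, on plain totals, on spike-in totals and within either collection method alone. In α cells Sdha read 134, 155, 156 and 159 CPM at E17.5 and 149, 217, 206, 167 and 208 CPM at P60, which overlapped and did not pass the test.

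**Figure D3:**
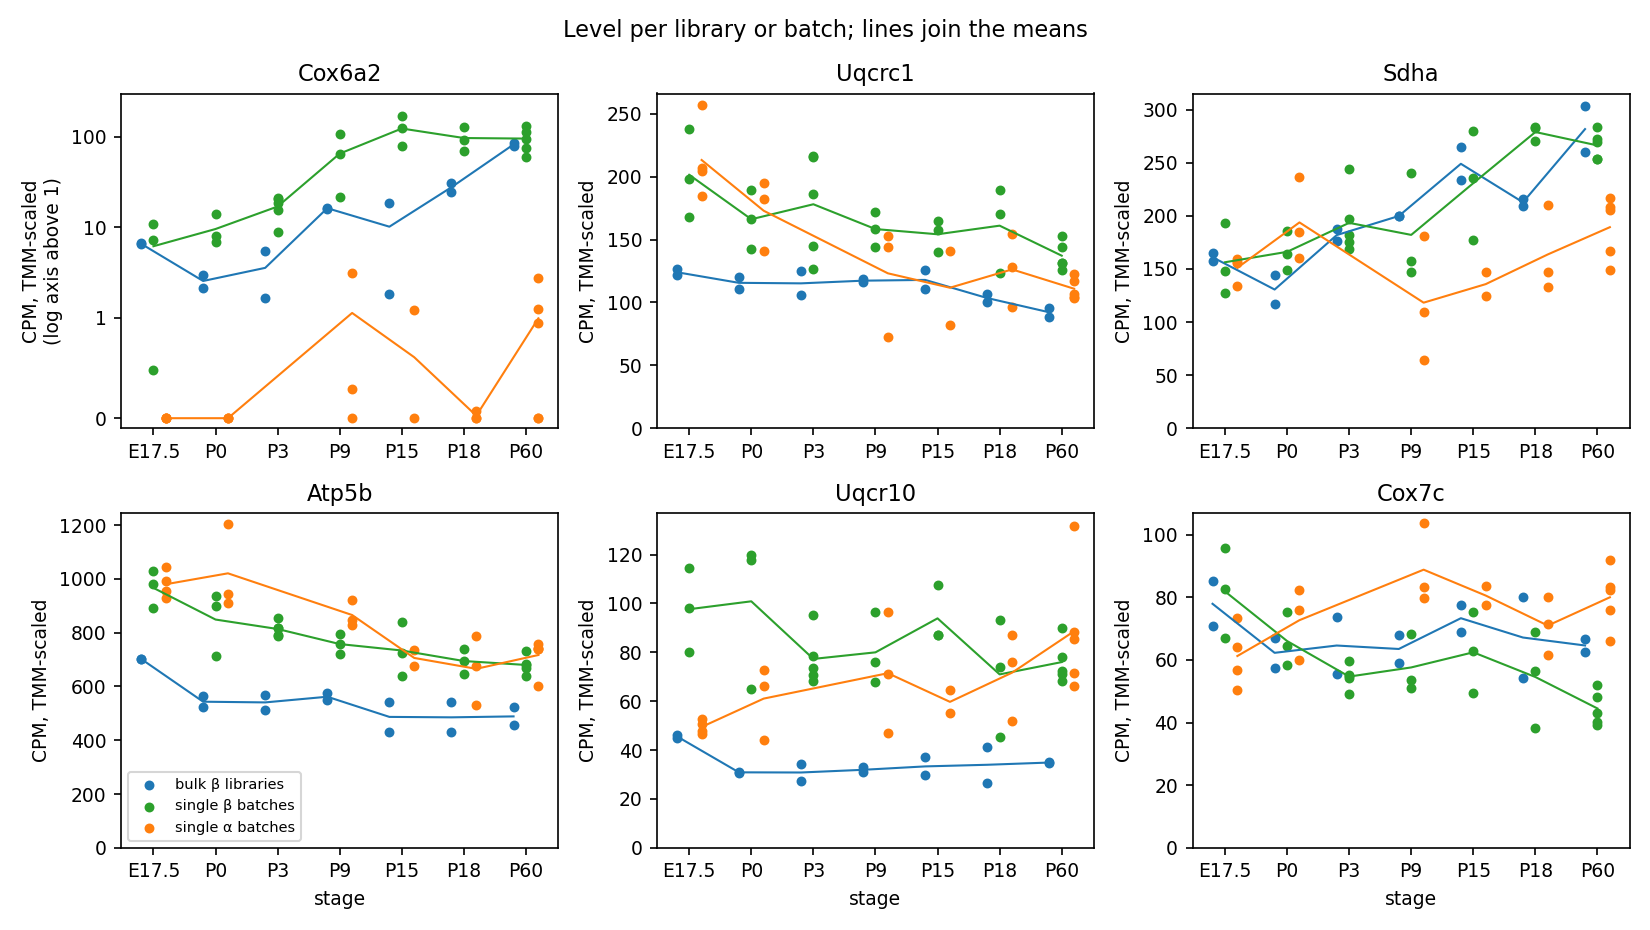
TMM-scaled CPM of 6 members in each bulk β library, single β batch and single α batch by stage; lines join the stage means, α cells were not collected at P3, and the Cox6a2 axis is logarithmic above 1. Cox6a2 climbs in β cells and not to that level in α cells, Uqcrc1 is lower at P60 than at E17.5 in α cells, Atp5b is lower at P60 than at E17.5 in all 3 data sets, and Uqcr10 and Cox7c end higher in α cells than they began.

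The assembly factors that rose in bulk were Ndufaf4 and Ndufaf7. Ndufaf4 stood at 12.0 and 10.3 CPM at E17.5 and at 20.0 and 18.8 CPM at P60 (0.80 ± 0.22, adjusted p = 0.0207). Ndufaf7 stood at 16.4 and 12.7 CPM and then at 21.7 and 25.9 CPM (0.71 ± 0.21, adjusted p = 0.0236). From P0 to P60, 4 of the 7 assembly factors rose, beside 18.6% of all genes, and each of these calls ended with an acinar covariate. Besides Ndufaf4 and Ndufaf7, Ndufaf5 (4.82 and 4.93 CPM to 9.06 and 8.62) and Ndufaf2 (2.28 and 2.08 CPM to 4.03 and 5.24) passed, and all 7 changes were positive with a median of 0.66. In single β cells 6 of the 7 were positive with a median of 0.35 and none passed edgeR's test, and in single α cells 5 of the 7 were negative with a median of -0.31 and again none passed. The Ndufaf4 call in bulk held in none of the 4 fits that left out a library and the Ndufaf7 call in 2 of them, and both ended on plain or hormone-free totals. In Ndufaf2, 64.1% of 50-base words also occur in another gene, mainly B230220B15Rik, which overlaps it on the other strand, so reads of these genes may not be told apart.

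Members that fell in bulk from E17.5 to P60 included 3 parts of ATP synthase. Atp5b, the catalytic β subunit and per length the most abundant complex V member (898 ± 4.35 TPM at E17.5, n = 2), stood at 703 and 702 CPM at E17.5 and at 456 and 522 CPM at P60 (-0.52 ± 0.17, adjusted p = 0.0354). Atp5c1, the rotating γ subunit, stood at 150 and 140 CPM and then at 93.6 and 111 CPM (-0.50 ± 0.16, adjusted p = 0.0389). The ring subunit gene Atp5g2 (-0.46 ± 0.16, adjusted p = 0.0446), the complex I membrane arm subunit Ndufb4 (-0.61 ± 0.17, adjusted p = 0.0171) and the complex III core protein Uqcrc1 (-0.43 ± 0.13, adjusted p = 0.0312) fell by similar amounts. No library overlapped between the stages for these 5 genes. None of the 7 falls held once any 1 of the 4 libraries was left out (3 or 4 members called in all), and an acinar or an Xist covariate ended each of them.

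From P0 to P60 the picture in bulk was mostly of rises, and this direction depends on the scale. Here 9 members rose and 2 fell, beside 18.6% and 20.9% of all genes (39.5% in all), and 65 of 88 changes were positive with a median of 0.24 against -0.06 for all genes, but on plain totals the median was -0.19. Those that rose included Cox6a2, Sdha and the 4 assembly factors. Also, Sdhc, a membrane anchor of complex II (50.2 and 57.1 CPM to 72.4 and 88.0), and Cox8a, a small subunit of complex IV (55.1 and 43.3 CPM to 81.9 and 65.7), rose by 0.58 ± 0.18 (adjusted p = 0.0256) and 0.58 ± 0.20 (adjusted p = 0.0402). The P60 libraries lay above the P0 libraries for both. With an acinar covariate edgeR called 0 of the 88 members, and 3 had an unadjusted p under 0.05. The count was 4 without P0 replicate 1 or P60 replicate 2 and 6 without P0 replicate 2.

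Between neighbouring stages hardly any member was called. In bulk the counts were 0 for P3 against P0, P9 against P3, P15 against P9 and P18 against P15 (2.45%, 0.0746%, 0% and 0% of all genes), with 10, 1, 8 and 1 members at an unadjusted edgeR p under 0.05. Between P18 and P60, 1.55% of all genes passed in bulk. Single β cells gave 0 at all 6 steps, in the order of the stages beside 0.0809%, 0.151%, 0.00539%, 0.0162%, 0.00539% and 0.0162% of all genes, with 3, 4, 7, 2, 3 and 3 members under the unadjusted threshold. Single α cells gave 1, Sdhd, an anchor of complex II, which was lower at P9 than at P0 (-0.81 ± 0.19, adjusted p = 0.0171, beside 1.07% of all genes). The other α steps called 0 members by edgeR, beside 0.248% (P0 against E17.5), 0% (P15 against P9), 0.0162% (P18 against P15) and 0.124% (P60 against P18) of all genes, with 8, 11, 1 and 5 members under the unadjusted threshold. Across all stages 11 members differed in single β cells (7.09% of all genes) and 18 in single α cells (10.5%).

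In single β cells more members fell than rose from E17.5 to P60. Of 90 members 3 rose, Cox6a2 and Sdha among them, and 12 fell, beside 3.08% and 3.88% of all genes (6.96% in all). The sign was negative for 70 of 90 members with a median of -0.27 against -0.01, and the median stayed negative under every scaling tried (-0.21 with spike-in totals). All 8 complex III members, 33 of 38 in complex I, 11 of 16 in complex IV and 14 of 15 in complex V were negative. Cox7c, a small subunit of complex IV, read 82.7, 67.2 and 95.9 CPM at E17.5 and 51.9, 40.1, 48.3, 43.0 and 39.4 CPM at P60 (-0.88 ± 0.16, adjusted p = 0.000316). Atp5g1 read 124, 99.1 and 144 CPM and then 88.2, 76.8, 79.0, 50.3 and 53.6 CPM (-0.81 ± 0.19, adjusted p = 0.00466). Atp5b read 1028, 892 and 980 CPM and then 683, 678, 638, 671 and 731 CPM (-0.50 ± 0.11, adjusted p = 0.00240). No batch overlapped for these 3 genes, whose calls held in all 8 fits without 1 batch.

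The other members that fell in single β cells were Atp5o, the stalk subunit that joins the parts of ATP synthase (-0.73 ± 0.18), Ndufb11 (-0.72 ± 0.17), Ndufa1 (-0.65 ± 0.17), Ndufb4 (-0.61 ± 0.18) and Ndufb8 (-0.53 ± 0.15), which are accessory subunits of complex I, Cox5b of complex IV (-0.57 ± 0.17), the ATP synthase subunits Atp5j2 (-0.57 ± 0.18) and Atp5c1 (-0.45 ± 0.12), and Uqcrb of complex III (-0.53 ± 0.16). Ndufa1 and Ndufb11 lie on the X chromosome, and Xist ranged from 0.119 to 143 CPM in the β batches at E17.5 and from 0 to 1.99 CPM at P60; its part in these values was not tested. With spike-in totals edgeR called 0 of the 90 members, and 8 had an unadjusted p under 0.05. Within picked batches edgeR called 1 member, with a median of -0.17. Within FACS-sorted batches, with 1 β batch at E17.5, the median was -0.45. The count was 7 in place of 15 without β E17.5 replicate 1 and again without β E17.5 replicate 3.

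Bulk and single β cells share no library, so their calls can be set side by side. There were 3 members that rose in both, Cox6a2 and Sdha among them, which is 60% of the 5 rises in bulk and 100% of the 3 in single cells. Atp5b, Atp5c1 and Ndufb4 fell in both, 42.9% of the 7 falls in bulk and 25% of the 12 in single cells. Of the 88 members tested in both, 71 had the same sign, and no member was called in opposite directions. The matching overlap and share of equal signs over all genes were not computed, so this agreement is not shown to be particular to the members.

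Single α cells had rises as well as falls over the same interval. Of 90 members 11 rose and 7 fell, beside 4.3% and 5.66% of all genes (9.97% in all). The median change was 0.08 with 50 members positive, but it was -0.68 on plain totals, -0.11 on totals without hormone genes and -0.47 on spike-in totals. Atp5e, the ε subunit of ATP synthase, read 125, 133, 126 and 77.0 CPM at E17.5 and 235, 228, 163, 243 and 219 CPM at P60 (1.04 ± 0.21, adjusted p = 0.000918). Uqcr10, a small subunit of complex III, read 52.9, 47.7, 50.7 and 46.5 CPM and then 88.1, 71.7, 132, 85.4 and 66.3 CPM (0.94 ± 0.21, adjusted p = 0.00309). The stages did not overlap for these genes, nor for Uqcrq of complex III, which read 38.8, 46.7, 41.4 and 23.1 CPM and then 58.6, 69.9, 59.2, 57.8 and 90.0 CPM (0.90 ± 0.22, adjusted p = 0.00552).

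Further rises in α cells came from Ndufs5 (0.79 ± 0.20), Ndufc2 (0.60 ± 0.17), Ndufa5 (0.60 ± 0.18) and Ndufb6 (0.54 ± 0.17) of complex I, Cox8a (0.67 ± 0.17) and Cox6c (0.57 ± 0.17) of complex IV, and Atp5j2 (0.61 ± 0.17) of complex V. On plain totals the changes of Cox8a, Atp5j2, Ndufc2, Ndufa5, Cox6c and Ndufb6 turned negative (-0.10, -0.15, -0.15, -0.16, -0.18 and -0.22). The calls of Atp5e, Uqcr10, Uqcrq and Cox8a held in all 9 fits that left out 1 batch, and all 4 ended on plain totals and on spike-in totals. Without α E17.5 replicate 4, which was the lowest batch of Atp5e, Uqcrq and Ndufs5, the count of called members was 9 in place of 18. Within FACS-sorted batches 1 member was called, with a median of 0.02. Within picked batches, with 1 α batch at E17.5, the median was 0.28.

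The falls in α cells were led by Uqcrc1, the core protein of complex III, which read 207, 185, 205 and 257 CPM at E17.5 and 103, 107, 104, 117 and 123 CPM at P60 (-0.99 ± 0.18, adjusted p = 0.000197). Ndufb8 read 111, 116, 100 and 111 CPM and then 55.3, 73.5, 66.0, 60.3 and 80.8 CPM (-0.66 ± 0.14, adjusted p = 0.00141). Atp5b read 991, 930, 955 and 1045 CPM and then 603, 741, 759, 740 and 743 CPM (-0.47 ± 0.10, adjusted p = 0.00212). No batch overlapped between the stages for these 3 genes. Atp5o (-0.59 ± 0.17), Ndufb4 (-0.60 ± 0.17) and the ATP synthase subunit gene Atp5a1 (-0.46 ± 0.12) also fell. Atp5b, Atp5o, Ndufb4 and Ndufb8 were thus called lower in both single β and single α cells, 33.3% of the 12 falls in β and 57.1% of the 7 in α. The same overlap over all genes was not computed.

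The size of change differed between the cell types for 12 members on the TMM scale, and for 0 with spike-in totals. The change in α cells exceeded that in β cells for 12 members and was smaller for 0, where 2.02% and 1.65% of all genes were called (3.67% in all). A positive difference was measured for 63 of 90 members with a median of 0.36 against 0.00 for all genes, but with spike-in totals the median was -0.28 and edgeR called 0 members, with 5 at an unadjusted p under 0.05. Cox7c had the smallest p: its batches at E17.5 and P60 in α cells read 64.2, 73.5, 56.9 and 50.5 CPM and then 92.1, 83.3, 66.1, 76.1 and 82.5 CPM, while those in β cells fell as given above (difference 1.33 ± 0.23, adjusted p = 0.000236). In Cox7c, 22.1% of 50-base words also occur in another gene, so its values are uncertain to that extent. The same limit is given below for Uqcrb, Ndufb6 and Ndufs5. For Atp5j2 the changes were -0.57 in β and 0.61 in α cells (difference 1.18 ± 0.25, adjusted p = 0.00315), and both were called. Uqcr10 (1.30 ± 0.31, adjusted p = 0.00817) and Atp5e (1.33 ± 0.30, adjusted p = 0.00583) rose in α cells, with β changes of -0.37 and -0.29 that did not pass.

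The other 8 members called for this difference were Uqcrb, Cox7a2, Ndufa1, Ndufb6, Ndufs5, Ndufb11, Atp5k and Atp5h, with differences from 0.71 to 1.195. Complex V (14 of 15 positive, median 0.56), complex III (6 of 8, 0.55) and complex IV (13 of 16, 0.50) had higher medians than complex I (27 of 38, 0.32), and the 7 assembly factors had 6 negative differences and a median of -0.81. Called members counted 4 in complex V, 4 in complex I, 2 in complex III and 2 in complex IV. Cox7c, Atp5j2, Atp5e and Uqcr10 were called in all 17 fits without 1 batch, whereas the count fell to 6 without β E17.5 replicate 1, to 4 without β E17.5 replicate 3 and to 6 without α E17.5 replicate 4. Within FACS-sorted batches, with 1 β batch at E17.5, the median difference was 0.45. Within picked batches, with 1 α batch at E17.5, it was 0.40. Across the 90 members the difference was inversely related to gene length (Spearman rho = -0.42), with a median of 0.57 in the 45 shorter and 0.08 in the 45 longer members. This correlation is across genes that share the same libraries and is given as a description.

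**Figure D4:**
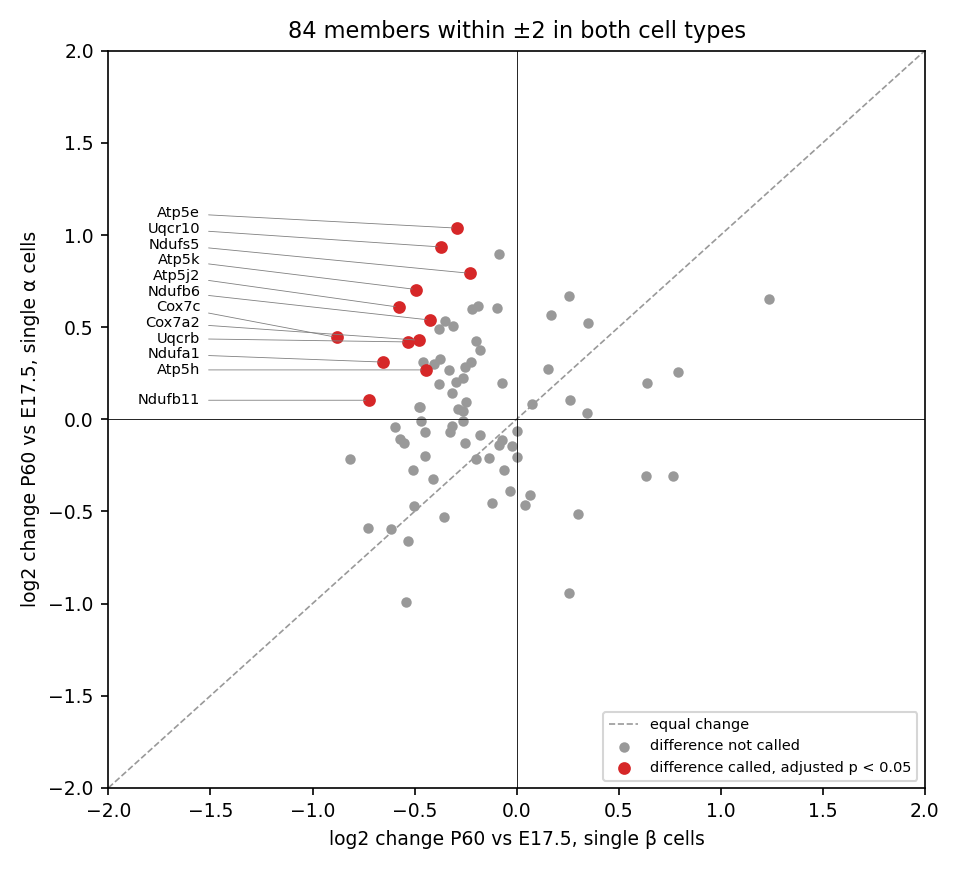
Fitted log2 change from E17.5 to P60 in single α cells against that in single β cells for the 84 members within ±2 in both; the dashed line marks equal change, and red points are the 12 members whose difference passed adjusted p under 0.05. The red points lie above the line, at β changes between -0.88 and -0.23 and α changes between 0.10 and 1.04. With spike-in totals none of the 12 was called.

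On the TMM scale the α cells had less of many members than the β cells at E17.5, and more of several at P60. At E17.5, 18 members were lower in α cells and 0 higher, beside 5.05% and 3.25% of all genes (8.3% in all), with 63 of 90 negative and a median of -0.26. Uqcrq (-1.43 ± 0.24, adjusted p = 6.42e-05), Uqcr10 (-1.06 ± 0.23), Atp5g1 (-0.97 ± 0.20) and Cox5a (-0.96 ± 0.28) were among them. At P60, 11 members were higher and 5 lower, beside 5.92% and 7.02% of all genes (12.9% in all). The median at P60 was 0.13, and -0.29 with spike-in totals. The contrast at E17.5 was not recomputed on other totals, so whether its direction depends on the scale was not tested. Both contrasts use separate batches and share none, and the test of their difference is the one given above.

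Members that were higher in α cells at P60 came from 4 complexes. Cox7c read 92.1, 83.3, 66.1, 76.1 and 82.5 CPM in α cells and 51.9, 40.1, 48.3, 43.0 and 39.4 CPM in β cells (0.84 ± 0.14, adjusted p = 4.16e-05). Ndufa6, an accessory subunit of complex I, read 212, 181, 143, 140 and 153 CPM against 103, 85.2, 89.6, 98.7 and 90.8 CPM (0.82 ± 0.14, adjusted p = 5.81e-05). The α batches stood above all β batches for both genes. The remaining 9 were Atp5e, Atp5c1, Atp5j2, Atp5h, Ndufa5, Ndufa8, Ndufb6, Uqcrh and Cox6b1, higher by 0.40 to 0.80. With spike-in totals none of the 11 was called, and 7 members were called within FACS-sorted and 6 within picked batches.

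Lower in α cells at P60 were, among others, Cox6a2, given above, Cox5a, a small subunit of complex IV that read 10.9, 15.3, 9.01, 13.2 and 8.94 CPM against 27.6, 22.5, 24.4, 26.0 and 27.4 CPM in β cells (-1.14 ± 0.23, adjusted p = 0.000486), and the complex I subunits Ndufb8 (-0.53 ± 0.13) and Ndufb9 (-0.47 ± 0.15). The batches of the cell types did not overlap for Cox5a. At the stages in between, the counts of higher and lower members were 1 and 3 at P0 (2.14% and 2.83% of all genes, 4.96% in all), 2 and 4 at P9 (2.9% and 3.61%, 6.51% in all), 1 and 5 at P15 (2.78% and 2.63%, 5.41% in all) and 3 and 6 at P18 (4.19% and 4.86%, 9.05% in all). Cox6a2 was lower in α cells at each of these 4 stages. Named after their values were seen, other lower members were Cox7a2l, which joins respiratory complexes into larger assemblies, and Ndufa4 at P0, Cox7a2l and Ndufb8 at P9, Ndufb8, Ndufb9, Atp5a1 and Sdhc at P15, and Ndufb8, Uqcrq, Cox5a and Sdha at P18. The higher ones were Ndufb4 at P0 and P9, Ndufa6 at P9 and P18, Uqcrh at P18, and Cox6b2 at P15 and P18, where β cells held 0 Cox6b2 reads.

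Some rarer isoforms of complex IV fell in bulk β cells on the TMM scale. Cox7a1, the muscle form of subunit 7A, stood at 2.16 and 1.71 CPM in bulk at E17.5 and at 0.566 and 0.383 CPM at P60 (-2.01 ± 0.67, adjusted p = 0.0409, lost with DESeq2). Single β cells held 431 Cox7a1 reads at E17.5, in 49.1% of cells, and 49 at P60, in 7.75% of cells; that change was not called. Cox6b2, the testis form of subunit 6B, stood at 1.72 and 2.39 CPM in bulk at E17.5 and at 0.283 and 0.319 CPM at P60 (-2.73 ± 0.83, adjusted p = 0.0292). The stages did not overlap for either gene in bulk, where the mesenchymal markers were lower at P60 too, and the part of those cells was not tested.

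In α cells Cox4i2, the lung form of subunit 4, read 1.38, 0.608, 0.742 and 2.60 CPM at E17.5 and 0 in all 5 batches at P60. The 128 reads at E17.5 came from 13.8% of cells, and 0 reads at P60 put the gene at least 37.1-fold lower with a floor of 3 reads over the group (adjusted p = 0.00876, lost with DESeq2, within either collection method and without α E17.5 replicate 4). The 4 mesenchymal markers summed to 52.8 to 106 CPM in the α batches at E17.5 and to 0.319 to 14.3 CPM at P60, and their part in the Cox4i2 values was not tested. β cells held 1 Cox4i2 read at E17.5 and 0 at P60. Ndufa4l2, a paralogue of Ndufa4 known from hypoxic cells, fell in bulk from P0 to P60 (2.098 and 1.56 CPM to 0.212 and 0, adjusted p = 0.0323). Single β cells held 0 reads of it at E17.5, 0 at P0 and 28 at P60, the last in 2.33% of cells. In bulk the mesenchymal markers were also higher at P0 than at P60, and their part in the Ndufa4l2 values was not tested. Cox8b and Cox8c were not tested in either data set, nor were Cox4i2 and Cox7b2 in bulk, for lack of reads.

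**Figure D5:**
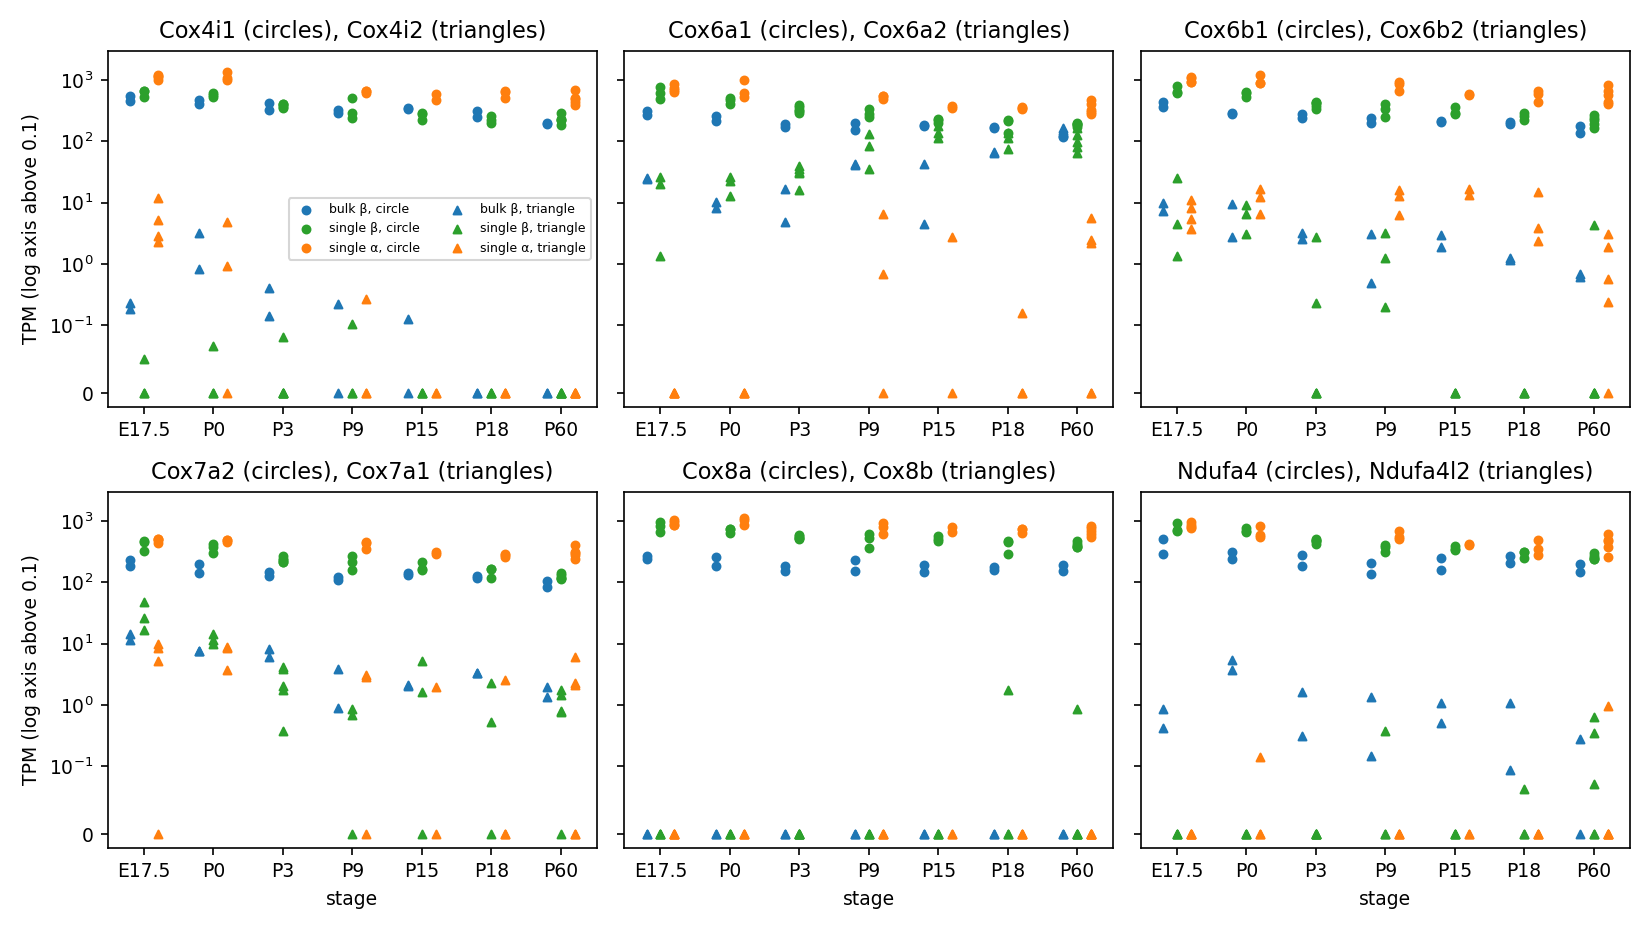
TPM of 6 isoform pairs by stage in bulk β libraries, single β batches and single α batches (log axis above 0.1); circles are the broadly expressed member and triangles its partner. Triangles are lower at P60 than at E17.5 for Cox6b2 and Cox7a1 in bulk and for Cox4i2 in α cells, and climb for Cox6a2 in β cells, where 164 and 151 TPM at P60 in bulk pass the Cox6a1 circles at 122 and 116 TPM.

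Levels between genes were compared per length. In bulk at E17.5 and P60 the most abundant member of each complex was Ndufa4 (named for complex I though now placed in complex IV, 400 and 174 TPM), Sdhd (197 and 93.0 TPM), Uqcrb (273 and 137 TPM), Cox4i1 (493 and 198 TPM) and Atp5b (898 and 323 TPM). The least abundant tested were Ndufa4l2 (0.647 and 0.139 TPM), Sdhc (50.6 and 32.0 TPM), Uqcrq (60.0 and 31.6 TPM), Cox6b2 (8.59 and 0.652 TPM) and Atp5g1 (44.1 and 15.3 TPM). Among assembly factors Ndufaf3 (34.9 and 21.9 TPM) was the highest and Ndufaf4 (7.53 and 6.76 TPM) the lowest. In bulk, 87 of 90 members with reads had a lower mean TPM at P60 than at E17.5, against 61 on the TMM scale. TPM counts the hormone transcripts in the total, and their part in the lower values was not tested. Broad isoforms kept their rank over their partners at each stage mean in bulk, other than the Cox6a pair at P60.

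Promoters of the members are known as sites of the factors NRF1, GABP (an ETS factor) and YY1, so their letters were searched. RefSeq promoter windows (GRCm38.p6), which run from 250 bases before the start of transcription to 50 after, were found for 73 members, 78 windows in all. On both strands, the core of the NRF1 motif occurred in 25.6% of the members' windows and in 4.6% of all 32851 windows. The ETS core CCGGAAG occurred in 21.8% of the members' windows against 8.86% of all windows. The YY1 core AANATGGCG occurred in 12.8% against 2.38%, more often among the members. Shares were close for the E-box, with 7.69% against 7.15%, where the letters searched were those of its palindrome CACGTG. The TATA box, searched by the letters TATAAA, occurred in 10.3% against 13.6%. No window held overlapping matches of different motifs, and the median GC content was 57.5% in members and 52.7% in all windows. By complex, the NRF1 core was found in 8 of 35 windows of complex I, 6 of 16 named for complex V and 1 of 13 of complex IV, and the YY1 core in 7 of 35 and 3 of 16, with 0 of 13 in complex IV.

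The upstream sequences below show 1 member that rose in α cells with an NRF1 core (Ndufs5, chr4:123718203-123718436), 1 that rose there with an ETS core on the opposite strand (Atp5e, chr2:174464106-174464351) and 1 that fell in bulk β, single β and single α cells with NRF1 cores (Ndufb4, chr16:37654454-37654618). All lie on the minus strand and are written 5′ to 3′ in the direction of the gene, from 250 bases before the RefSeq start up to the GENCODE gene, with the match in capitals. A match is a description and not a bound site.
Ndufs5: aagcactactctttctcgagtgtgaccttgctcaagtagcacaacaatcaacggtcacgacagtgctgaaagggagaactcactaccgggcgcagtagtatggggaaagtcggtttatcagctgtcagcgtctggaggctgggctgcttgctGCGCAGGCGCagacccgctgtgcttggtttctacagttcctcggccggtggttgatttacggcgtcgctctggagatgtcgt
Atp5e: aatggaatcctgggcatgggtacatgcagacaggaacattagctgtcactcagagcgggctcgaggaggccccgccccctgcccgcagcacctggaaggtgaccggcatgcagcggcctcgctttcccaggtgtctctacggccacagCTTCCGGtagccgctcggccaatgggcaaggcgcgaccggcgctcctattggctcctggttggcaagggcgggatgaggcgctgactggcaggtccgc
Ndufb4: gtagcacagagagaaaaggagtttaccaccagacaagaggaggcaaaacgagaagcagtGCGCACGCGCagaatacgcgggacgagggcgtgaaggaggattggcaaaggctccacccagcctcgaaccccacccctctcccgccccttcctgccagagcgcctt
The marked NRF1 core lies 98 to 89 bases before the start in Ndufs5 and 191 to 182 before it in Ndufb4, and the ETS core 102 to 96 before it in Atp5e. The whole Ndufb4 window holds 3 NRF1 core matches, and only the marked match lies within the bases shown. Members that rose and members that fell were thus both among those with an NRF1 core. Their change from E17.5 to P60 in single α cells was 0.79 ± 0.20 for Ndufs5 (adjusted p = 0.00710), 1.04 ± 0.21 for Atp5e and -0.60 ± 0.17 for Ndufb4 (adjusted p = 0.0198). In 8 members over 20% of 50-base words also occur in another gene. Those words lie mainly in genes elsewhere for Ndufs5 (21.7%), Cox7c (22.1%), Uqcrb (25.5%) and Atp5g2 (38.3%), and mainly in neighbours that overlap on the other strand for Ndufaf2, Ndufa13 (28.5%), Ndufb6 (31.6%) and Atp5o (41.6%). Values of these genes are uncertain to that extent.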

How the data were processed

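Read counts per gene (whole numbers, not normalized) were made by the authors with TopHat2 2.1.0 and HTSeq 0.6.0 on GRCm38 (mm10), per the submitters' processing notes, which also name DESeq 1.20.0. The strand setting of the counting is not given in the sources used here; the bulk kit keeps strand, per the labels' protocols. The deposited TPM tables were not used.

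Members and lists were chosen with earlier results of these data known. Counts of single cells were summed per labelled batch; 51 cells of other groups were not used. No libraries had identical values. edgeR 4.0.16 (R 4.3.3) quasi-likelihood tests used TMM scaling, its filter on low counts and Benjamini-Hochberg adjustment, over 16086 genes in bulk (stage, all 14 libraries; 88 members tested) and 18537 in single cells (group and collection method, all 45 batches; 90 members tested). TPM was computed from the counts and the gene lengths in the deposited table. Levels are CPM with TMM scaling. Alternatives used DESeq2 1.42.0 and limma 3.58.1, other scalings, no filter, covariates, each collection method alone, and each replicate left out. The scripts were tested on simulated data.

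Named genes were the members called in a main comparison, all of them where 12 or fewer in a direction and otherwise the 8 with the smallest p, the highest and lowest member of each complex by mean TPM, and the isoform pairs. Intervals and errors cover the labelled libraries or batches only. Results for 1 member are not reported here.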

Additional observations from a re-analysis of the deposited data

Results flagged for a closer look

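The change from E17.5 to P60 differed between single α and β cells, by a test of the difference itself, for 12 members. The differences, on the log2 scale as α minus β, were 1.33 for Cox7c, 1.18 for Atp5j2, 1.33 for Atp5e, 0.95 for Uqcrb, 1.30 for Uqcr10, 0.91 for Cox7a2, 0.96 for Ndufa1, 0.96 for Ndufb6, 1.02 for Ndufs5, 0.82 for Ndufb11, 1.195 for Atp5k and 0.71 for Atp5h. The β change was negative and the α change positive for each of the 12, on the TMM scale. With spike-in totals none of the 12 was called, and the median difference over the members was -0.28.

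Of 173 groups of 4 or 5 batches checked over 36 members and the complex sums, 8 held a batch far from the others, where chance flags about 1 in 20 groups. Among α batches at E17.5, replicate 4 read 77.0 CPM for Atp5e (others 125 to 133) and 2604 CPM for the sum of complex I (others 3184 to 3265). Replicate 2 read 121 CPM for Atp5o (others 102 to 103), and replicate 1 read 134 CPM for Sdha (others 155 to 159). Among α batches at P60, replicate 1 read 603 CPM for Atp5b (others 740 to 759), and replicate 3 read 469.7 CPM for the sum of complex II (others 515 to 530). Among β batches, P60 replicate 3 read 71.2 CPM for Ndufc2 (others 81.0 to 84.7), and P3 replicate 2 read 0.0460 CPM for Cox4i2 (others 0).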

How the results depend on the processing

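Counts of called members kept within 1.5 times of the main count in 87 of 155 recomputed values. Counts under an alternative, here and above, stand without the share of all genes called in the same fit. They show how the counts move with processing and do not set the members apart from other genes. In bulk, for all stages, P60 against E17.5, P0 against E17.5 and P60 against P0 (4, 12, 2 and 11 members), moved counts were 10 and 6 with DESeq2 (all stages, P0 against E17.5); 23, 48 and 24 on plain totals (all but P0 against E17.5); 8 and 20 on totals without hormone genes (all stages, P60 against E17.5); 14 and 13 with no filter (all stages, P0 against E17.5). With an acinar covariate they were 2, 0, 0 and 0 (7, 5, 8 and 3 at an unadjusted edgeR p under 0.05), and with an Xist covariate 2 and 1 for P60 and P0 against E17.5. Leaving out 1 library gave 3 to 8, 3 to 4, 0 to 0 and 4 to 8.

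In single cells, for β and α P60 against E17.5, β and α over all stages, α against β at P60 and the difference in change (15, 18, 11, 18, 16 and 12 members), plain totals gave 73, 56, 72, 62 and 49. Spike-in totals gave 0, 8, 2, 11, 4 and 0. FACS-sorted batches gave 1 (α P60 against E17.5) and 7 (α against β at P60). Picked batches gave 1 (β P60 against E17.5) and 6 (α against β at P60). The other comparisons within a single collection method left only 1 batch in some group. DESeq2 gave 19, 31, 27 and 22 for the last 4, totals without hormone genes 27 (β) and 17 (β over all stages), no filter 6 (β over all stages), 10 and 7 (the last 2), and no collection term 7 (the difference). Leaving out 1 batch gave 7 to 15 (β), 9 to 20 (α), 11 to 18 (α against β) and 4 to 14 (the difference). By TPM, 3 members had a higher mean at P60 than at E17.5 in bulk, against 29 by TMM-scaled CPM.

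Medians that changed sign were -0.19 (bulk P60 against P0, plain totals), 0.0545 (bulk P60 against E17.5, Xist), in α cells -0.68 (plain totals), -0.11 (without hormone genes), -0.47 (spike-ins) and -0.00107 (no collection term), for α against β -0.29 (spike-ins) and -0.10 (FACS-sorted), and -0.28 for the difference (spike-ins). Genes that changed sign were Cox6b2 (0.82, bulk P60 against P0, acinar), Sdha (-0.00633, single β, plain totals), and in α cells on plain totals Cox8a (-0.10), Atp5j2 (-0.15), Ndufc2 (-0.15), Ndufa5 (-0.16), Cox6c (-0.18, and -0.0154 with spike-ins) and Ndufb6 (-0.22). The cause was not tested.

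With the replicate number as a block, bulk counts were 4, 12, 3 and 11; same-numbered libraries correlated at -0.205 to 0.402 over 21 pairs of stages, with 8 over 0.1, so the numbers were not taken as pairs. Batches of 5 to 39 cells and 2 bulk libraries per stage limit what could be detected.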

Other observations

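Most genes of 2 other mitochondrial lists had negative changes around birth in bulk β cells. From E17.5 to P0 all 14 citric acid cycle genes tested had a negative change (median -0.30), with 0 called by edgeR and 6 at an unadjusted p under 0.05, and 59 of 76 mitochondrial ribosome genes were negative (median -0.26), with 6 called lower, beside 3.36% of all genes called lower and a median of 0.03 over all genes. From P0 to P60, 13 of 36 assembly factors outside the member list rose and 0 fell (median 0.38), beside 18.6% of all genes called higher and 20.9% called lower. The direction of this contrast depends on the scale, since plain totals move the median of all genes from -0.06 to -0.50, and the lists here were not recomputed on those totals. Those with the smallest p included Coa5 (1.06 ± 0.16, edgeR adjusted p = 0.000572), Tmem126b (1.59 ± 0.25, adjusted p = 0.000768) and Tmem70 (1.05 ± 0.19, adjusted p = 0.00147), which serve complexes IV, I and V. Esrrg, a nuclear receptor that drives mitochondrial genes in mature β cells, rose by 1.71 ± 0.26 (adjusted p = 0.000646), and Nrf1, the factor that gives the promoter motif its name, fell by 0.48 ± 0.16 on the log2 scale (adjusted p = 0.0333).

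In single cells the ATP synthase inhibitor Atpif1 fell in β cells from E17.5 to P60 (-1.02 ± 0.14, edgeR adjusted p = 4.85e-06), while its α change was 0.23 ± 0.14 and did not pass. The α change minus the β change was 1.25 ± 0.20 (adjusted p = 0.000109). Lrpprc, which stabilises mitochondrial messenger RNAs, fell in α cells (-1.94 ± 0.22, adjusted p = 9.68e-08), and the difference from the β change was -2.57 ± 0.33 (adjusted p = 4.06e-06). The heme-bearing complex III subunit Cyc1 also fell in α cells (-0.77 ± 0.18, adjusted p = 0.00442). These genes lie outside the symbol rule and were named after their values were seen. Their values on other scales or with a batch left out were not examined.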
